A study of Mus musculus with 35 samples.

Results

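The MiT/TFE transcription factors and the proteins that pass nutrient signals from the lysosome to them were followed through mouse hippocampus in a series on tauopathy. The members were the 4 genes of the factor family (Tfeb, Tfe3, Mitf and Tfec), folliculin (Flcn) with its partners Fnip1 and Fnip2, the Rag GTPases Rragc and Rragd, and the lysosomal calcium channel gene Mcoln1. They were chosen by name from known biology, but with earlier results of these data known. All 10 were found among the 32285 genes of the nuclei tables. Single-nucleus RNA libraries came from frozen hippocampus of C57BL/6 mice aged 9 months in 4 genotypes, with 3 WT, 3 PS19, 4 CLEAR and 4 CLEAR_PS19 libraries, and 1 library of each genotype was from a female. Bulk RNA libraries of whole hippocampus covered WT and PS19 at 9 months (5 and 4 libraries) and at 4 months (6 and 6 libraries), with no sex in the labels. PS19 mice carry a transgene for a mutant human tau under the mouse prion (Prnp) promoter, which is active in neurons among other cells. CLEAR mice, as far as the design is known, carry a mutated CLEAR element, the DNA site that TFEB binds, in Atp6v1h, a subunit gene of the lysosomal proton pump, and CLEAR_PS19 mice carry both changes. The labels do not restrict either change to a cell type. No group was treated. The labels do not say that each library is from a separate animal, so p-values measure the spread between libraries, some of which may be technical.

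TFEB, TFE3, MITF and TFEC bind as dimers to E-box DNA and switch on genes for lysosomes and autophagy. In fed cells, amino acids load the Rag GTPases at the lysosome, a heterodimer of RagA or RagB with RagC or RagD recruits the kinase complex mTORC1, and mTORC1 phosphorylates TFEB and TFE3 and holds them in the cytoplasm. Folliculin with FNIP1 or FNIP2 is the GTPase-activating protein for RagC and RagD, and it is needed for the phosphorylation of TFEB by mTORC1. Mucolipin 1, the product of Mcoln1, releases lysosomal calcium and so activates calcineurin, the phosphatase that frees TFEB to enter the nucleus. Because this control acts on proteins, the mRNA levels below measure the share of each gene in the messages counted and not how much factor is active.

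The bulk libraries held 9630430 to 17182605 gene counts each. The nuclei libraries held 39939864 to 83579886 UMIs (unique molecular identifiers, 1 per captured transcript) over 132322 nuclei kept of 144991 barcodes, with a median of 3111 to 8175 UMIs per nucleus, and pairs of libraries shared 10 to 70 barcodes. Clusters were assigned to 9 classes by marker genes fixed with the members (microglia, oligodendrocytes, OPC for oligodendrocyte precursors, astrocytes, vascular cells, granule neurons, other excitatory neurons, inhibitory neurons and Cajal-Retzius cells), each defined by detected markers, and 4622 nuclei stayed unnamed. A further class, of 105 T cell-like nuclei (0 to 45 per library), was too small and is left out of all comparisons of classes. Microglia-like nuclei numbered 9487 (293 to 1459 per library). The labels held: Atp6v1h over all nuclei was 107 ± 9.12 CPM (SD, n = 3) in WT and 107 ± 9.21 (n = 3) in PS19, against 56.3 ± 1.77 (n = 4) with the CLEAR mutation alone and 58.8 ± 3.40 (n = 4) with both changes, where CPM is the count scaled to normalized library size. The drop in Atp6v1h differed between classes. In oligodendrocytes it was at 88.6 ± 3.95 CPM in WT and 16.5 ± 1.22 in CLEAR. In microglia it was at 104 ± 8.27 CPM in WT and 96.4 ± 7.15 in CLEAR, and at 126 ± 9.21 in PS19 and 86.5 ± 11.8 in CLEAR_PS19. Prnp in bulk was 848 to 982 CPM in the WT and 1954 to 2282 in the PS19 libraries. Over all nuclei Prnp was at 60.9 ± 5.47 CPM in WT and 102 ± 9.13 in PS19 (91.7 to 110). With the CLEAR mutation it was at 72.2 ± 9.44 CPM without tau and 141 ± 42.1 with it (91.5 to 180). The level thus varied more within CLEAR_PS19 than within PS19, which limits comparison of the tau difference between backgrounds. The nuclei libraries were cut into 3 sets by their granule neuron profiles, and the number of sets was imposed. Replicates 1 and 2 of WT and of PS19 grouped with replicate 3 of each mutant genotype (set 1), the female libraries formed set 2, and replicates 1 and 2 of each mutant genotype formed set 3. Set 3 has no library without the CLEAR mutation, so values are also given by set where a CLEAR comparison rests on them. This mutant-only set depends on how the libraries were grouped. Of 6 combinations of correlation and linkage 3 gave these sets. In the others, replicates 1 and 2 of each mutant genotype grouped with replicates 1 and 2 of WT.

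Promoter sequences are shown for the 3 members that hold the core letters of the site bound by this factor family, since these are the members on which the family could act through that motif near the start. RefSeq promoters of build GRCm38.p6, from 250 bases before to 50 after each start, were found for all 10 members. The E-box CACGTG, which reads the same on both strands, stood in the promoters of Fnip1, Rragc and Mcoln1 and in none of the promoters of the other 7 members. It is in capitals within the + strand stretch that ends at or before the RefSeq start.
Fnip1 chr11:54437929-54438178: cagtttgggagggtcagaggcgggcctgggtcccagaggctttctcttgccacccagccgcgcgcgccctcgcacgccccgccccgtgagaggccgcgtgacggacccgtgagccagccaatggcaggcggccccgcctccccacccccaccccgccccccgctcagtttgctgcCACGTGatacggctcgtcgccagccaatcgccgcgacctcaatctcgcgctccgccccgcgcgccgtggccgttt
Rragc chr4:123917183-123917432: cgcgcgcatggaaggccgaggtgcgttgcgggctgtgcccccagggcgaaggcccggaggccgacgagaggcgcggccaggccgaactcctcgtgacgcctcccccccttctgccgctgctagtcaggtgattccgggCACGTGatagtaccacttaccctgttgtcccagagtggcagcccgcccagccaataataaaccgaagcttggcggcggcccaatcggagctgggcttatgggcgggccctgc
Mcoln1 chr8:3500269-3500486: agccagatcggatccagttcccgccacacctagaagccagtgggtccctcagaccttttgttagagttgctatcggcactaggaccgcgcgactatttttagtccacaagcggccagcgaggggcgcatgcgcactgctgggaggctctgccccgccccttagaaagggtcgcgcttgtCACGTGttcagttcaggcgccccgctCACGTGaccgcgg
Mcoln1 alone held the motif at 2 places, and 1 of these had T before and A after it (TCACGTGA). Among all 32851 promoters of this length, 7.15% held CACGTG, 0.974% held TCACGTGA and 0.326% held GTCACGTGAC, the CLEAR element. No member's promoter held the CLEAR element, which says only that these letters are not in this window.

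In GRCm38 (GENCODE M21), Tfeb is at chr17:47737030-47792419, Tfe3 at chrX:7762560-7775202, Mitf at chr6:97807052-98021349 and Tfec on the reverse strand at chr6:16833373-16898441. Mitf is the longest, with 214.3 kb from end to end, much of it intron, and unspliced transcripts are read in nuclei. Flcn at chr11:59791408-59810016 and Fnip2 at chr3:79455974-79567796 are on the reverse strand too. Fnip1 is at chr11:54438199-54518235, Rragc at chr4:123917446-123936997, Rragd at chr4:32983037-33022180 and Mcoln1 at chr8:3500457-3515232. This GENCODE start of Mcoln1 lies before the RefSeq start and between the 2 motifs printed, so by it the TCACGTGA lies after the start. The exons of Rragc overlap those of 4930535I16Rik on the opposite strand, and the strand setting in the only bulk file that records one was unstranded, so reads of the pair cannot be told apart in bulk and Rragc values there are uncertain.

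Scaled to exon length, the messages of the Rag GTPases were the most abundant of the members in bulk hippocampus. Those of Mitf, Tfeb and Tfec were the 3 lowest. The order depends on the length used, the union of all annotated exons. That union covered 9.26 kb of the 12.6 kb Tfe3 gene and 7.55 kb of the 14.8 kb Mcoln1 gene. Before scaling, Fnip1 (group means of 77.0 to 78.3 CPM) was above Rragc (61.6 to 69.4 CPM). Per kilobase of exon, Rragd stood at 20.9 ± 2.09 CPM per kb and Rragc at 19.9 ± 1.45 (SD over all 21 libraries, genotypes and ages together). These 2 levels did not separate, since Rragd was above Rragc in 12 of 21 libraries. Flcn followed at 12.4 ± 1.39 and lay above Fnip1, at 10.9 ± 0.66, in 17 libraries. Mcoln1 at 7.51 ± 0.46, Tfe3 at 4.08 ± 0.32 and Fnip2 at 3.30 ± 0.45 CPM per kb were each above the next member in 21 of 21. Mitf was at 2.21 ± 0.55 and Tfeb at 1.65 ± 0.29, with Mitf the higher in 17 libraries. Tfec was nearly absent, at 0.010 CPM per kb with 0 to 4 counts per library, and was too low to test.

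Across cell classes in the nuclei, microglia-like nuclei had the highest mean CPM for 9 of the 10 members, and Rragd was the exception. All levels that follow are CPM, as the mean ± SD over 14 libraries of all 4 genotypes. CPM is the share of a gene in the UMIs of its class and not an amount per nucleus. Classes differ in UMIs per nucleus, so the order per nucleus can differ. Fnip1, for example, had 43389 UMIs in 33958 nuclei of other excitatory neurons and 6524 in 9487 of microglia. The levels compare classes for 1 gene and are not corrected for gene length, so genes are not compared with each other. Tfeb, the family member best known as a regulator of lysosomal genes, was at 88.4 ± 23.7 in microglia and 87.6 ± 28.3 in oligodendrocytes, and microglia were above oligodendrocytes in 9 of 14 libraries, so these 2 classes did not differ beyond their spread. Vascular cells followed with 44.2 ± 28.8, astrocytes with 28.5 ± 9.77 and OPC with 17.99 ± 4.61. Neurons held little Tfeb, with 6.28 ± 2.18 in inhibitory, 4.23 ± 5.37 in Cajal-Retzius, 3.87 ± 0.95 in other excitatory and 2.31 ± 0.80 in granule neurons. Oligodendrocytes gave 6748 of the 12583 Tfeb UMIs and microglia 1698. The order below oligodendrocytes was firm for vascular cells, which were lower in 14 of 14 libraries.

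Tfe3, the close relative that shares many targets with TFEB, stood apart in microglia alone, at 86.4 ± 15.1 CPM against 7.83 to 13.7 in the other 8 classes, and microglia were the highest class in 14 of 14 libraries. Mitf, known from pigment cells, osteoclasts and mast cells, was at 710 ± 312 CPM in microglia and 304 ± 58.5 in Cajal-Retzius cells, an early-born neuron type that persists at the hippocampal fissure. Vascular cells (196 ± 97.2), oligodendrocytes (175 ± 29.9), OPC (130 ± 20.6), astrocytes (101 ± 20.6), inhibitory neurons (94.0 ± 10.5), granule neurons (70.2 ± 18.5) and other excitatory neurons (59.7 ± 8.07) followed for Mitf. The vascular class also held markers of choroid plexus and ependyma, with summed levels of 20.8 to 4726 CPM over the libraries, and its Mitf ranged from 109 to 482 CPM; the part of such nuclei in that level was not tested. Microglia were above Cajal-Retzius cells in 14 of 14 libraries for Mitf, while vascular cells were above oligodendrocytes in 10. Tfec, a member expressed mainly in myeloid cells, had 118 of its 169 UMIs in microglia, which came to 5.00 ± 3.23 CPM. No Tfec UMI was found in astrocytes or vascular cells, and the other classes were at 0.020 to 0.676 CPM for Tfec.

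Flcn and its partners were also highest in microglia, while the class next in level differed between them. Flcn was at 58.7 ± 12.1 CPM in microglia, above oligodendrocytes (30.1 ± 4.77) in 14 of 14 libraries, and oligodendrocytes, astrocytes (28.97 ± 8.03) and vascular cells (28.0 ± 14.2) did not separate. Flcn was lowest in other excitatory neurons, at 12.99 ± 1.97. Fnip1 was at 313 ± 84.5 in microglia and 185 ± 57.7 in Cajal-Retzius cells, and reached its lowest level, 99.3 ± 7.86, in other excitatory neurons. Its paralog Fnip2 was at 307 ± 151 in microglia, which were the highest class in 14 libraries, then 132 ± 23.9 in oligodendrocytes and 107 ± 12.2 in granule neurons, and 39.2 ± 5.40 in other excitatory neurons. Granule neurons were above inhibitory neurons (88.5 ± 8.96) for Fnip2 in 14 of 14 libraries, whereas for Fnip1 they were at 102 ± 8.17 and inhibitory neurons at 108 ± 9.12.

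Rragc and Rragd, the paralogs that folliculin acts on, were distributed differently. Rragc was at 58.0 ± 15.7 CPM in microglia, 27.1 ± 14.4 in Cajal-Retzius cells and 25.3 ± 2.53 in oligodendrocytes, and it was lowest in granule neurons, at 11.8 ± 0.96. Rragd was highest in granule neurons, at 18.1 ± 1.46, and in OPC, at 17.4 ± 5.18, and granule neurons were above OPC in 8 of 14 libraries. Microglia held 10.1 ± 7.33 CPM of Rragd, near inhibitory neurons (11.2 ± 1.51), vascular cells (11.2 ± 10.4) and astrocytes (10.4 ± 6.08), and oligodendrocytes held the least, 2.63 ± 0.60. The microglial mean pools genotypes that differed, at 5.12 CPM in WT and 4.26 in CLEAR, below inhibitory neurons (11.3 and 9.48), and at 19.1 in PS19, level with granule neurons (19.1) and OPC (19.1), and 13.004 in CLEAR_PS19. Granule neurons were the highest class for Rragd in only 4 libraries. Mcoln1 was at 37.0 ± 7.50 CPM in microglia and 23.2 ± 16.1 in vascular cells, with microglia the higher in 11 of 14 libraries, and between 11.9 (astrocytes) and 19.95 (Cajal-Retzius cells) elsewhere.

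**Figure D1:**
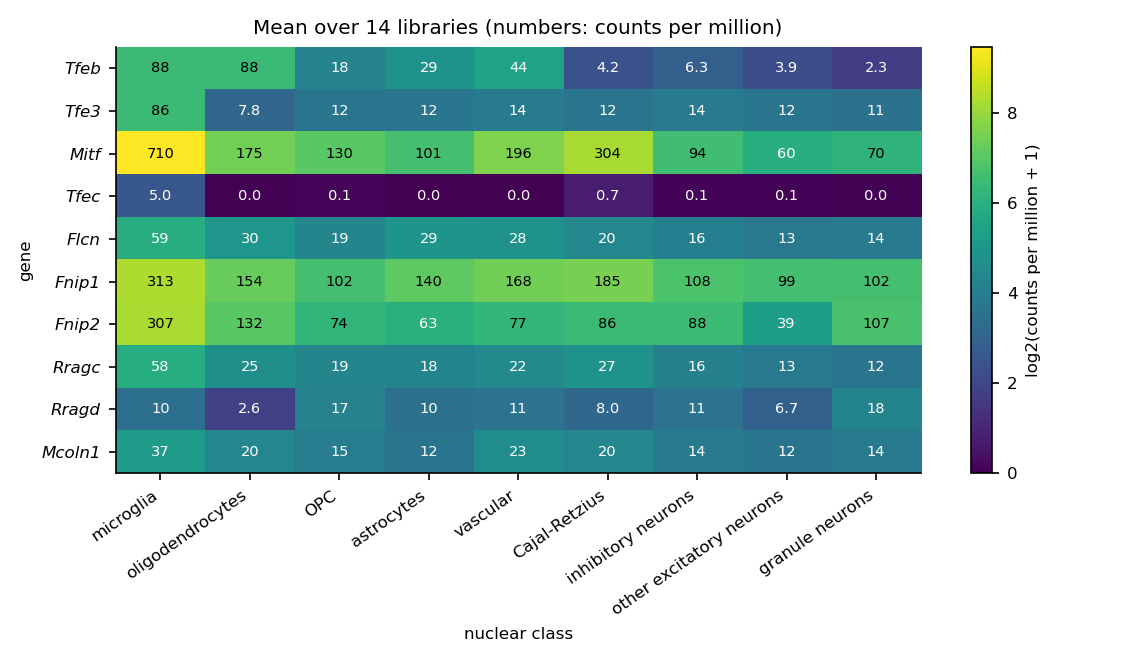
Level of each member by cell class in the nuclei: each cell prints the mean over the 14 libraries (CPM of counts summed per library and class) and its colour is log2(CPM + 1). Microglia hold the highest mean for every member but Rragd, which is highest in granule neurons and OPC, and Tfeb is as high in oligodendrocytes (87.6 CPM) as in microglia (88.4 CPM).

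For each member the 3 genes most like it over the 9 class means were listed by Pearson r of log2(CPM + 1), as a description without a test, since 9 classes from the same libraries are few points and all genes were searched. Flcn was closest to Wdr53 (r = 0.99) and to Ctsd (r = 0.98), the gene of the lysosomal protease cathepsin D. Rragc was closest to Nhlrc3 (r = 0.98) and had another member, Mitf, in second place (r = 0.97). Tfeb was closest to Plod1 (r = 0.99), Mitf to Tti1 (r = 0.99) and Mcoln1 to Gspt1 (r = 0.98). Tfe3 was closest to Gm37876, with Aoah and Cd53 next (r = 0.99, 0.99 and 0.98), Tfec to Sash3, Il6 and Hk3, and Fnip1 to Atf1 (r = 0.99). Fnip2 was closest to Fbxl18 (r = 0.93), and another of its 3 genes, Gm17359, overlaps it on the opposite strand. Rragd had the weakest match, Spats2 (r = 0.88).

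At 9 months Tfeb message was higher in bulk PS19 than in WT hippocampus and was the only member to pass the test. The 5 WT libraries held 8.14, 8.16, 8.48, 6.99 and 7.89 CPM of Tfeb (86 to 141 counts), and the 4 PS19 libraries held 11.6, 11.6, 9.98 and 14.1 CPM (116 to 185 counts). The groups did not overlap. The difference was +0.57 on the log2 scale (SE 0.11, adjusted p = 0.000898, edgeR quasi-likelihood test with Benjamini-Hochberg adjustment over 16133 genes). Of 9 members tested 1 was called, where 12.8% of all genes tested were called, and 5 had an unadjusted p under 0.05, where 25.9% of all genes did. The share of members is thus no larger than that of all genes for the adjusted calls. Tfeb stayed called under each of the 26 alternative settings run, at +0.48 to +0.65. In bulk tissue more cells of a type and more RNA per cell cannot be told apart: summed markers of microglia went from 407 to 459 CPM in WT to 1019 to 1341 in PS19 (10 of 10 higher), those of activated microglia from 1308 to 1509 CPM to 2087 to 2461 (8 of 9 tested) and those of astrocytes from 2400 to 2864 CPM to 2953 to 3688 (4 of 8), 6 of 9 oligodendrocyte markers were higher and 4 of 6 granule neuron markers were lower. The part of these shifts in the Tfeb difference was not tested.

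The other members of the factor family and their regulators moved less in bulk. Mitf was at 14.5, 14.5, 7.76, 15.0 and 14.7 CPM in WT and 17.98, 17.3, 18.8 and 18.2 in PS19, a difference of +0.45 (SE 0.20, adjusted p = 0.15). Fnip2 was at 25.8, 23.8, 15.6, 26.8 and 25.3 CPM in WT and 28.0, 27.5, 30.04 and 27.1 in PS19, a difference of +0.27 (SE 0.12, adjusted p = 0.14). Rragc was at 65.7, 61.1, 62.7, 58.6 and 60.1 CPM in WT and 66.9, 71.9, 71.3 and 67.4 in PS19, a difference of +0.17 (SE 0.06, adjusted p = 0.083). In Mitf, Fnip2 and Rragc, as in Tfeb, every PS19 library was above every WT library, which makes 4 of 9 members tested against 13.1% of all genes tested. WT replicate 3 was the lowest WT library for Mitf and Fnip2, and without it their differences were +0.30 (adjusted p = 0.33) and +0.15 (adjusted p = 0.30). Rragc passed the test without WT replicate 6 of 4 months (+0.18, adjusted p = 0.030), a library outside this contrast that enters through the shared spread. Rragd ran the other way without passing: 111, 103, 102, 120 and 120 CPM in WT and 105, 94.1, 98.5 and 100 in PS19, with overlap and a difference of -0.16 (SE 0.08, adjusted p = 0.19). Tfe3 (34.5 to 42.2 CPM in WT, 36.6 to 44.0 in PS19) differed by +0.14 (adjusted p = 0.22), and Flcn (46.2 to 57.5 and 44.3 to 67.9 CPM) by +0.10 (adjusted p = 0.57). Fnip1 and Mcoln1 were level, at -0.01 (adjusted p = 0.97) and 0.00 (adjusted p = 0.98).

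**Figure D2:**
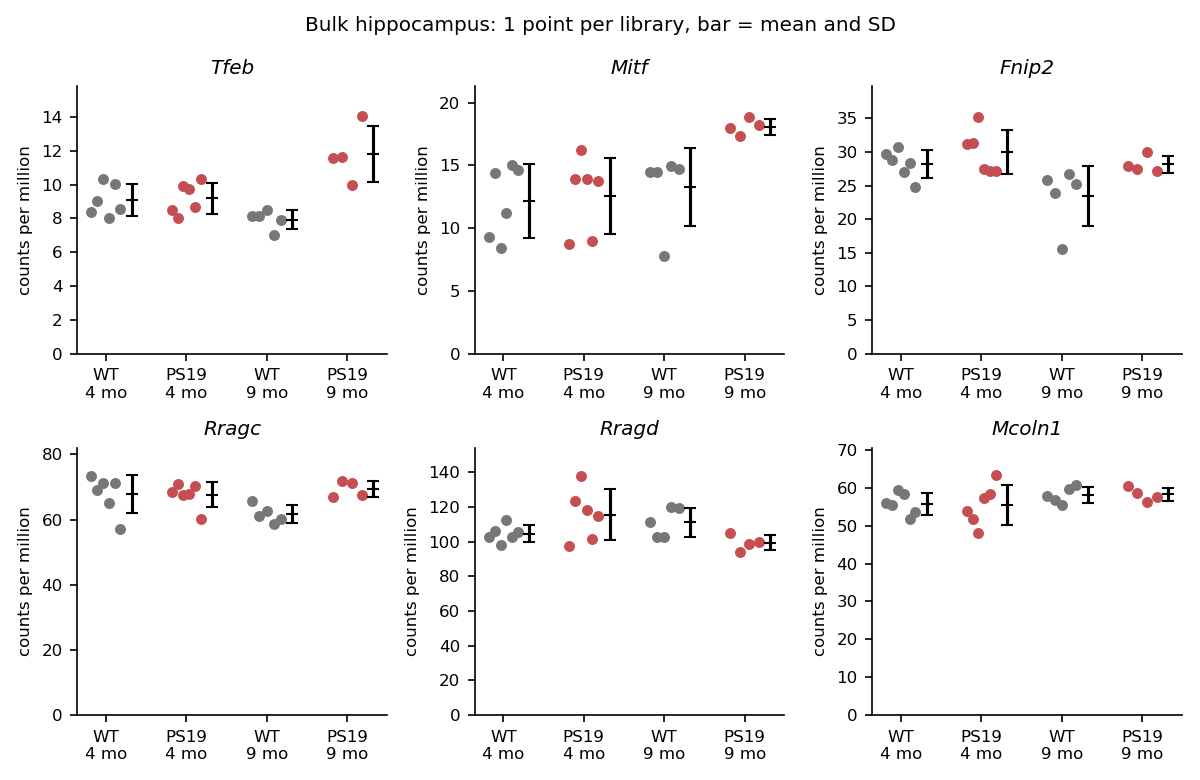
Bulk levels of Tfeb, Mitf, Fnip2, Rragc, Rragd and Mcoln1 (CPM, vertical axes from 0) in WT (grey) and PS19 (red) hippocampus at 4 and 9 months; points are libraries, and the black bar beside them is the group mean and SD. Tfeb in PS19 at 9 months (9.98 to 14.1 CPM) lies above WT at 9 months (6.99 to 8.48 CPM), while at 4 months the genotypes overlap for every member shown.

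Mitf levels in bulk moved with Ttr, the transthyretin gene, a marker of choroid plexus. The 5 libraries lowest in Mitf were WT 9 months replicate 3 (7.76 CPM), WT 4 months replicates 1 and 3 (9.27 and 8.43) and PS19 4 months replicates 1 and 5 (8.72 and 8.94). The same 5 libraries had the lowest Ttr, at 608, 541, 25.1, 27.2 and 30.5 CPM in the same order, against 2618 to 5804 CPM in the other 16. All 4 PS19 libraries of 9 months were Ttr-rich, at 4128 to 5324 CPM. The part of choroid plexus in the Mitf values was not tested.

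**Figure D3:**
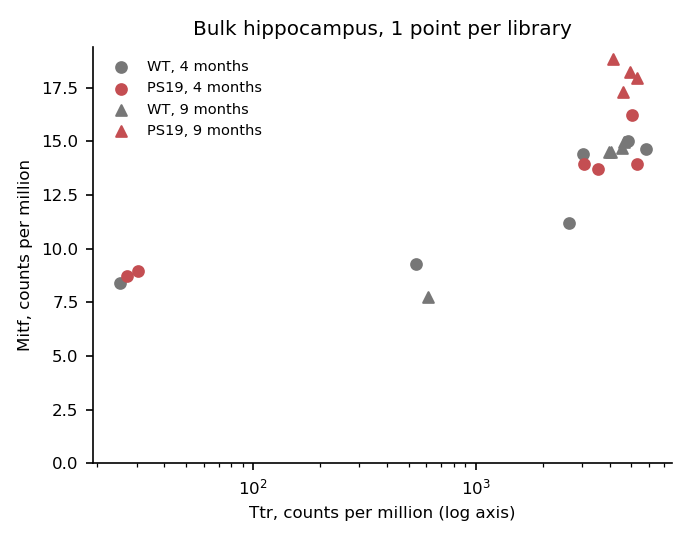
Mitf against Ttr in the 21 bulk libraries (CPM, log horizontal axis), with colour and marker for genotype and age. The 5 libraries with the least Ttr (25.1 to 608 CPM) hold 7.76 to 9.27 CPM of Mitf and every other library holds more.

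At 4 months no member was called between the genotypes (0 of 9, with 0.0186% of all genes called; 1 member and 3.69% of all genes at an unadjusted p under 0.05; DESeq2 also called 0). Tfeb ranged from 8.04 through a median of 8.80 to 10.4 CPM in WT and from 8.005 through 9.21 to 10.3 in PS19, a difference of +0.02 (SE 0.09). The groups overlapped fully. Rragd was the member with the unadjusted p under 0.05, at 97.9, 104 and 112 CPM (lowest, median, highest) in WT and 97.3, 117 and 138 in PS19, a difference of +0.14 (SE 0.07, adjusted p = 1.00).

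The tau difference in Tfeb changed with age. The difference at 9 months minus that at 4 months was +0.55 (SE 0.14, adjusted p = 0.024), and Tfeb was the only member called, where 5.41% of all genes were. Without PS19 9 months replicate 5, the library with the highest Tfeb (14.1 CPM), the value was +0.46 and the call was lost (adjusted p = 0.089). For Rragd the same contrast was -0.31 (SE 0.10, adjusted p = 0.091), and it passed without PS19 4 months replicate 1 (-0.35, adjusted p = 0.033). Mitf (+0.41, adjusted p = 0.45), Fnip2 (+0.18, adjusted p = 0.58) and Rragc (+0.18, adjusted p = 0.27) did not pass.

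From 4 to 9 months, Tfeb rose within PS19 by 0.36 (SE 0.10, adjusted p = 0.019), and Rragd fell by 0.22 (SE 0.08, adjusted p = 0.049), so 2 of 9 members were called where 17.3% of all genes were. The Tfeb call was lost without PS19 9 months replicate 5 (+0.26, adjusted p = 0.12), and the Rragd call was lost in 21 of 26 alternatives. Mitf did not overlap between the ages in PS19, with a highest value of 16.2 CPM at 4 months and a lowest of 17.3 at 9 months, as for 13.3% of all genes tested, but its difference of +0.53 (SE 0.19, adjusted p = 0.062) was not called. Under 6 alternatives Mitf was called, DESeq2 among them (adjusted p = 0.040). Within WT no member was called with age (0 of 9; 0% of all genes; 2 members, Fnip2 and Rragc, and 11.2% of all genes at an unadjusted p under 0.05; DESeq2 0), and Tfeb differed by -0.19 (SE 0.10, adjusted p = 0.49). The comparisons between ages share libraries with those between genotypes.

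The rest of the pathway, in 6 lists of other genes, is given by counts for bulk at 9 months beside a median of -0.01 over all genes tested, of which 7.68% rose and 5.09% fell, and +0.14 over the 9 members. Of 14 known targets of the factors 5 rose, none fell and the median was +0.08. Those that rose included Ctsd, for cathepsin D (408 ± 53.0 CPM in WT, n = 5, and 986 ± 56.6 in PS19, n = 4; +1.27, adjusted p = 9.3e-08), Lamp1, for a lysosomal membrane protein (+0.48, adjusted p = 1.3e-07), the lysosomal hydrolase gene Hexa (+0.76), and Gpnmb (+1.87), which activated microglia also express. The targets without a call included Atp6v1h and Sqstm1. Of 8 Rag and Ragulator genes 1 rose, Lamtor1, a lysosomal anchor of the Rags (55.1 ± 1.08 to 63.2 ± 0.76 CPM; +0.20, adjusted p = 0.0040), with a median of +0.01. Of 11 GATOR and KICSTOR genes 1 fell, Nprl3, in the complex that inhibits RagA (-0.25, adjusted p = 0.033), with a median of -0.07. None of 5 amino acid sensor genes was called (median -0.03). Of 9 mTORC1 and TSC genes 1 fell, Mtor, the kinase itself (150 ± 11.3 to 127 ± 8.21 CPM; -0.24, adjusted p = 0.030), with a median of -0.11. Of 8 tested lysosomal calcium and calcineurin genes 2 fell, the calcineurin catalytic subunits Ppp3ca (-0.27, adjusted p = 0.0059) and Ppp3cb (-0.14, adjusted p = 0.043), with a median of -0.09. The cell type markers given above moved with these lists too, and their part was not tested.

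In the nuclei at 9 months, microglia of PS19 mice held more Mitf, Fnip1, Rragc and Rragd than those of WT mice, and no more Tfeb or Tfe3. Mitf was at 422, 528 and 608 CPM in the 3 WT libraries and at 1290, 1305 and 904 in the 3 PS19 libraries, a difference of +1.17 (SE 0.25, adjusted p = 0.0053). Fnip1 was at 246, 230 and 238 CPM in WT and 458, 433 and 355 in PS19, a difference of +0.80 (SE 0.16, adjusted p = 0.0049). Both were above every WT library in every PS19 library. Rragc was at 34.9, 45.4 and 35.6 CPM in WT and 69.6, 72.01 and 59.9 in PS19, a difference of +0.80 (SE 0.21, adjusted p = 0.021). Rragd was at 7.59, 3.13 and 4.64 CPM in WT and 19.1, 24 and 14.1 in PS19, a difference of +1.87 (SE 0.48, adjusted p = 0.0195). Rragd rests on few molecules, 2 to 84 UMIs per library over all groups. Fnip2 was at 214, 230 and 266 CPM in WT and 523, 567 and 339 in PS19, without overlap, and its difference of +0.99 (SE 0.31, adjusted p = 0.055) did not pass. DESeq2 called Fnip2 (+0.98, adjusted p = 0.034).

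Tfeb showed no such shift in microglia. It was at 86.5, 127 and 105 CPM in WT and 97.0, 115 and 106 in PS19, with overlap and a difference of 0.00 (SE 0.24, adjusted p = 1.00). Tfe3 was at 118, 72.03 and 80.5 CPM in WT and 85.9, 79.7 and 79.9 in PS19, a difference of -0.14 (adjusted p = 0.77). Flcn, at 47.1, 53.2 and 51.1 CPM in WT and 72.05, 66.6 and 56.6 in PS19, did not overlap but differed by only +0.37 (adjusted p = 0.38). Mcoln1, at 31.9, 39.1 and 29.4 CPM in WT and 44.0, 38.3 and 36.6 in PS19, differed by +0.24 (adjusted p = 0.65). Tfec gave 4, 2 and 2 UMIs in WT and 24, 40 and 6 in PS19 microglia and was not tested there.

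Of the 70 pairs of member and class that could be tested over 9 classes, these 4 in microglia were called between PS19 and WT, where 1.23% of all gene and class pairs and 9.67% of the genes tested in microglia were called. In microglia 6 of 9 members did not overlap between the groups, against 24.5% of all genes tested there. The Rragc call was lost in 8 of 26 alternatives, among them males only (adjusted p = 0.090) and leaving out WT 1 (adjusted p = 0.13), WT 2 (0.051), WT 3 (0.061), PS19 1 (0.060) or PS19 2 (0.081). The Rragd call was lost in 4 of 25, among them without WT 1 (adjusted p = 0.055), WT 2 (+1.54, adjusted p = 0.14) or PS19 2 (+1.74, adjusted p = 0.086). The calls of Mitf and Fnip1 were lost in 2 of 27 alternatives each, which were those that kept 1 microglial cluster. In the larger cluster Fnip1 was at +0.66 (adjusted p = 0.076) and Mitf at +0.36 (adjusted p = 0.62), and in the smaller Fnip1 was at +0.18 (adjusted p = 0.81) and Mitf at +0.46 (adjusted p = 0.25). With library sets by Pearson correlation as a block, the calls of Rragc (+0.77, adjusted p = 0.079) and Rragd (+1.74, adjusted p = 0.080) were both lost.

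**Figure D4:**
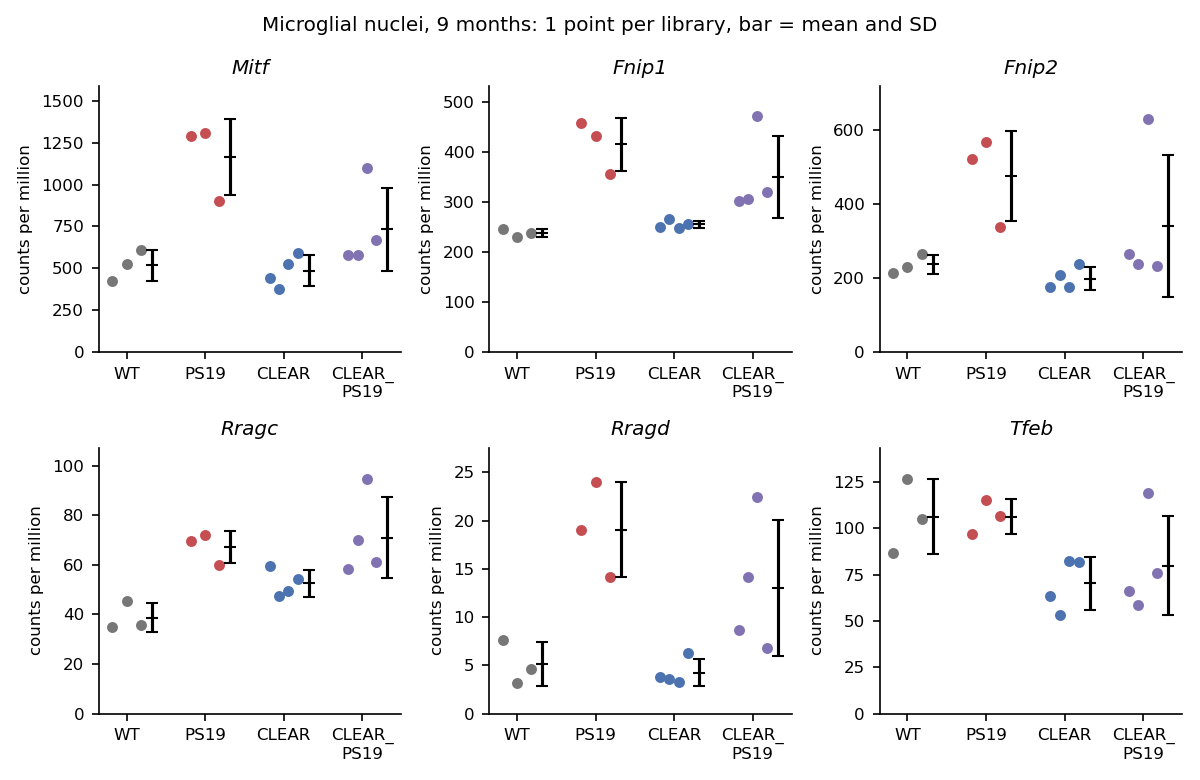
Microglial levels of Mitf, Fnip1, Fnip2, Rragc, Rragd and Tfeb by library (CPM of summed counts, vertical axes from 0) in WT, PS19, CLEAR and CLEAR_PS19; points are libraries, coloured by group, and the black bar beside them is the group mean and SD. PS19 libraries lie above WT for Mitf, Fnip1, Fnip2, Rragc and Rragd, Tfeb overlaps, and CLEAR_PS19 replicate 3 is the highest of its group for Mitf, Fnip1, Fnip2, Rragc and Rragd.

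On the CLEAR background the differences of the same members were positive, and none was called with sex as the covariate. Mitf was at 443, 379, 528 and 593 CPM in CLEAR and 583, 583, 1099 and 672 in CLEAR_PS19, a difference of +0.60 (SE 0.21, adjusted p = 0.26). Fnip1 was at 251, 265, 249 and 257 CPM in CLEAR and 302, 306, 472 and 320 in CLEAR_PS19, a difference of +0.45 (SE 0.14, adjusted p = 0.19). Rragd was at 3.80, 3.64, 3.30 and 6.30 CPM in CLEAR and 8.64, 14.2, 22.4 and 6.77 in CLEAR_PS19, a difference of +1.61 (SE 0.45, adjusted p = 0.13). Fnip1 and Rragd did not overlap between these groups, which makes 2 of 9 against 5.14% of all genes tested. Fnip2 (175, 207, 175 and 238 against 264, 238, 629 and 232 CPM; +0.77, SE 0.27, adjusted p = 0.27) and Rragc (59.5, 47.3, 49.5 and 54.2 against 58.5, 70.1, 94.4 and 60.9 CPM; +0.44, SE 0.17, adjusted p = 0.34) overlapped. Over all classes 0 of 70 pairs were called with edgeR and 0 with DESeq2, 7 had an unadjusted p under 0.05 (5.18% of all pairs did), and 0.0823% of all gene and class pairs were called. With the library set as a block Mitf was called in microglia (+0.57, adjusted p = 0.049; 2.11% of genes tested there), and without the filter on low counts Mitf, Fnip2 and Rragd were (2.04% of genes). Without CLEAR_PS19 replicate 3, the highest of its group for these 5 members, the differences were +0.32 for Mitf (adjusted p = 0.54), +0.27 for Fnip1 (adjusted p = 0.46), +0.30 for Fnip2 (adjusted p = 0.59), +0.26 for Rragc (adjusted p = 0.62) and +1.19 for Rragd (adjusted p = 0.35). That library was also the CLEAR_PS19 library with most nuclei in the smaller microglial cluster described below.

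Averaged over both backgrounds, which uses all 14 libraries, 5 of the 70 pairs were called for the tau transgene, again all in microglia (1.62% of all pairs; 11.4% of genes tested in microglia). The differences were +0.89 for Mitf (SE 0.16, adjusted p = 0.0015), +0.63 for Fnip1 (SE 0.11, adjusted p = 0.0010), +0.88 for Fnip2 (SE 0.21, adjusted p = 0.0094), +0.62 for Rragc (SE 0.14, adjusted p = 0.0057) and +1.74 for Rragd (SE 0.33, adjusted p = 0.0020). Tfeb (+0.11, adjusted p = 0.76), Tfe3 (-0.03, adjusted p = 0.94), Flcn (+0.32, adjusted p = 0.19) and Mcoln1 (+0.24, adjusted p = 0.39) did not pass. The averaged comparison shares its libraries with those on each background. The effect of the transgene on Mitf was not shown to differ between the backgrounds (interaction -0.57, adjusted p = 0.71), nor was that of any other member (0 of 70 pairs with edgeR and with DESeq2; 3 pairs, and 4.57% of all pairs, at an unadjusted p under 0.05; 0% of all pairs called).

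Within each library set the sign of the microglial tau difference held for 4 of these 5 members, but its size varied. The members had been called over the same libraries, so the kept sign is a description and no separate evidence. For Mitf the difference in log2 CPM was 1.46 on the wild-type and 1.06 on the CLEAR background in set 1, 0.57 and 0.18 in the females of set 2, and 0.50 in set 3. For Fnip1 the values in that order were 0.90, 0.92, 0.57, 0.31 and 0.24. For Rragc they were 0.81, 0.91, 0.73, 0.16 and 0.26, and for Rragd 1.81, 2.31, 1.34, 0.08 and 1.27. Fnip2 gave 1.29, 1.84, 0.35, -0.04 and 0.39, so its sign did not hold in the females on the CLEAR background. The largest values were in set 1 throughout. Each female value, and each value of set 1 on the CLEAR background, rests on 1 library per genotype.

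The microglia fell into 2 clusters whose shares differed most in PS19 replicates 1 and 2 and CLEAR_PS19 replicate 3, all males of set 1. The shares were not tested. The larger cluster (5779 nuclei) was led by Siglech, Selplg and Csf1r, genes of resident microglia. The smaller one (3708 nuclei) had 7 detected markers of activated microglia, and the immune genes Lilrb4a, Apobec1, Ifi204 and Fgr led it. WT libraries had 362, 277 and 393 nuclei in the larger and 11, 16 and 18 in the smaller cluster. PS19 libraries had 43, 15 and 677 in the larger and 1071, 1444 and 47 in the smaller, so PS19 replicates 1 and 2 were almost wholly in the smaller cluster and the female replicate 3 was not. CLEAR libraries had 276 to 506 in the larger and 17 to 45 in the smaller cluster. CLEAR_PS19 libraries had 693, 738, 212 and 662 in the larger and 154, 142, 640 and 27 in the smaller. The library with 27 was the female, and the female CLEAR library had 17. All of the members raised by tau were higher in the smaller cluster: Mitf averaged 993 CPM there and 531 in the larger, Fnip1 434 and 291, Fnip2 488 and 223, Rragc 82.9 and 49.8, and Rragd 16.1 and 5.77. This was not particular to them, since Mcoln1, not called for tau, was at 61.0 CPM in the smaller and 33.5 in the larger cluster. Tfeb differed less, 113 against 87.4 CPM, Flcn was at 68.7 against 65.4, and Tfe3 was lower, 68.5 against 84.7. These means weigh libraries equally, though some had as few as 11 nuclei in the smaller or 15 in the larger cluster. By the median over libraries, Mcoln1 was at 45.1 CPM in the smaller and 31.8 in the larger cluster, and Tfeb at 98.8 and 78.5. Median Flcn was at 72.7 and 52.3 and median Tfe3 at 75.6 and 81.9, so the gaps of Flcn and Tfe3 depend on the measure. Tfec had 110 of its UMIs in the smaller cluster against 8 in the larger. Since the clusters were made from the same counts, these levels are a description.

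Within the larger cluster, Fnip1 was the only member called for the transgene averaged over backgrounds (+0.50, SE 0.11, adjusted p = 0.011; 2.40% of 9782 genes called). Mitf was at +0.34 (SE 0.12, adjusted p = 0.19), Fnip2 at +0.31 (adjusted p = 0.34) and Rragc at +0.47 (adjusted p = 0.24), and Rragd was too low to test. Within the smaller cluster no member was called (0 of 4 tested, DESeq2 not run there, 16.6% of 2547 genes called). There 1 member had an unadjusted p under 0.05, and the share of all genes at that threshold was not computed. Mitf was at +0.43 (SE 0.15, adjusted p = 0.055), Fnip1 at +0.11 (adjusted p = 0.79) and Fnip2 at +0.29 (adjusted p = 0.32) in that cluster. Over all microglia the differences were +0.89 for Mitf, +0.88 for Fnip2, +0.63 for Fnip1 and +0.62 for Rragc. In the smaller cluster Rragc did not pass the filter on low counts, nor did Tfe3, Flcn and Mcoln1. That cluster held 697 Rragc UMIs against 472 in the larger, but the WT libraries had only 11, 16 and 18 nuclei in it. Little can therefore be read from the absence of calls there. The markers of the whole microglial class moved in the same libraries: 9 of 9 tested markers of activated microglia were higher with tau (summed level in WT 421 to 487 CPM, PS19 1547 to 4532, CLEAR 494 to 1210, CLEAR_PS19 639 to 2383), and 4 of 10 resident markers were lower. None of 3 tested markers of border macrophages was called, and T cell markers summed to 0 to 10.6 CPM in microglia. Of 3 tested granule neuron markers 2 were lower with tau in the microglial class (159 to 205 CPM summed in WT and 88.9 to 94.0 in PS19, but 75.9 to 174 in CLEAR and 98.3 to 139.5 in CLEAR_PS19). Of 4 tested astrocyte markers 1 was lower (371 to 2245 CPM in WT, 390 to 1844 in PS19), and of 2 vascular markers 1 was higher and 1 lower (34.9 to 105 and 54.1 to 205 CPM). None of the tested oligodendrocyte, OPC, inhibitory or other excitatory neuron markers was called there. The part of RNA from other cells in the members' differences was not tested.

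The microglial change in these 5 members was compared with that in each other class by exact two-sided permutation of the tau genotype within each background over 1400 relabellings, with Benjamini-Hochberg adjustment over 40 pairs and 0.0014 as the smallest unadjusted p possible. Of the 40 differences 33 passed. This relabelling does not keep sex or library set. Relabelled only within sets (288 relabellings, smallest unadjusted p possible 0.0069), 32 passed, with all 8 for Mitf, 6 for Fnip1, 7 for Fnip2, 4 for Rragc and 7 for Rragd. For Mitf the microglial change exceeded that of all 8 other classes, by 0.45 (granule neurons; exact permutation, adjusted p = 0.0099) to 1.09 (OPC; exact permutation, adjusted p = 0.0041). Fnip1, Fnip2 and Rragd each passed against 7 of 8 classes. Rragc passed against 4, which were granule, inhibitory and other excitatory neurons and oligodendrocytes. Vascular cells were the class against which Fnip1, Fnip2, Rragc and Rragd all failed (exact permutation, adjusted p = 0.090, 0.17, 0.99 and 0.15), and they held as few as 27 nuclei in a library. The microglial change was chosen because it had been called, so these tests place the other classes against it and are not a separate line of evidence for it.

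**Figure D5:**
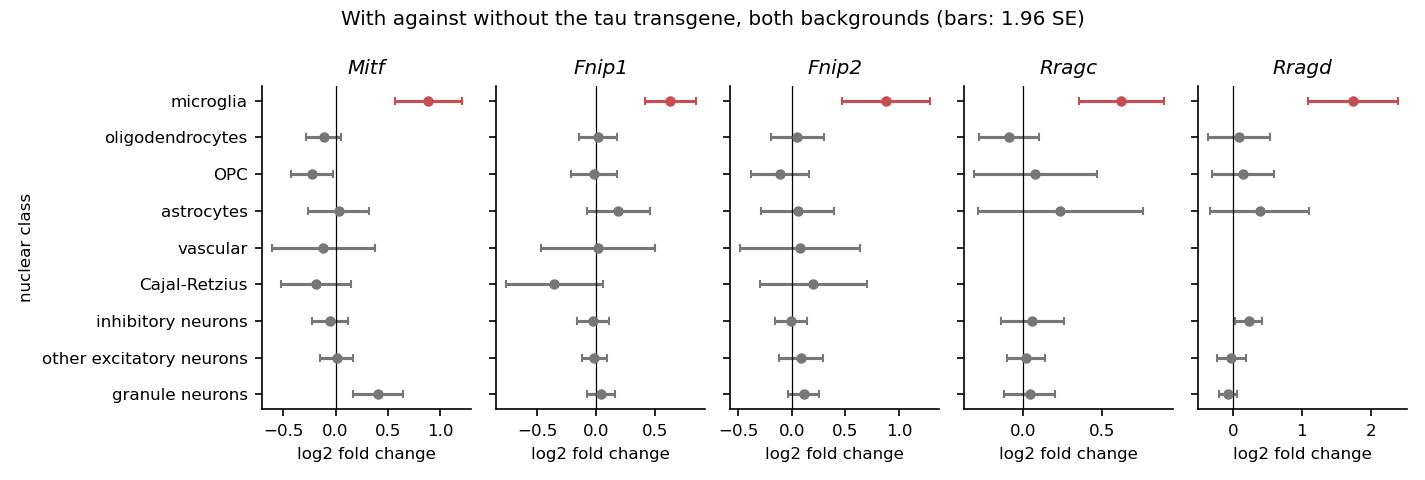
Difference between tau and non-tau libraries averaged over backgrounds (log2, edgeR) for Mitf, Fnip1, Fnip2, Rragc and Rragd in each class where the gene could be tested; bars are normal 95% intervals from the standard error, and red points passed at an adjusted p under 0.05. The 5 red points are Mitf, Fnip1, Fnip2, Rragc and Rragd in microglia.

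With edgeR and sex as the covariate, no member was called in any other class. The nearest was Mitf in granule neurons, at 39.1, 64.8 and 72.9 CPM in WT and 82.0, 114 and 93.7 in PS19. The groups did not overlap there, and the difference was +0.73 (SE 0.19, adjusted p = 0.14). The share of all genes without overlap was not computed in that class. DESeq2 called this Mitf difference (+0.73, adjusted p = 0.026), where it called 1.76% of all gene and class pairs. Microglial markers moved in the same class: with tau 4 of 8 tested were higher (143 to 246 CPM summed in WT, 192 to 268 in PS19) and 1 of 7 markers of activated microglia was (76.7 to 84.9 and 89.04 to 180 CPM). The microglial sums overlapped on the CLEAR background (150 to 227 CPM in CLEAR, 162 to 255 in CLEAR_PS19). Of the other lists in granule neurons, 1 astrocyte marker of 7, 1 border macrophage marker of 3 and 1 other excitatory neuron marker of 9 were lower, and 1 oligodendrocyte marker of 9, 1 inhibitory neuron marker of 8, 1 other excitatory neuron marker of 9 and the 1 Cajal-Retzius marker tested were higher. Their part in the Mitf difference was not tested. On the CLEAR background granule neuron Mitf was at 60.7, 56.7, 59.7 and 73.9 CPM in CLEAR and 54.8, 59.5, 78.7 and 72.2 in CLEAR_PS19, with overlap. Tfeb in oligodendrocytes, the class with most of its UMIs, differed by +0.09 between PS19 and WT (SE 0.35, adjusted p = 0.99). Granule neuron Rragd was level, at 18.9 to 19.8 CPM in WT and 18.8 to 19.4 in PS19.

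No member was called for mutation of the CLEAR element in the edgeR fit with sex as the covariate. With replicate number as a block, Tfeb, Mitf, Fnip1 and Fnip2 were called lower and Mcoln1 higher in some classes. That fit called 13.6% of all gene and class pairs for CLEAR against WT and 17.2% for CLEAR_PS19 against PS19. In the average it called 25936 of 108116. Between backgrounds the same number can differ in set and sex, so these calls cannot be assigned to the mutation. The counts and values that follow are without this block. CLEAR against WT gave 0 of 70 pairs (0.00462% of all pairs called; 3, and 5.22% of all pairs, at an unadjusted p under 0.05; DESeq2 0), CLEAR_PS19 against PS19 gave 0 (0.0740% of all pairs; 4, and 10.1% of all pairs, at an unadjusted p under 0.05; DESeq2 0), and the mutation averaged over tau gave 0 (0.00462% of all pairs; 7, and 11.8% of all pairs, at an unadjusted p under 0.05; DESeq2 0). The largest averaged microglial difference was in Tfeb, at 86.5, 127 and 105 CPM in WT and 63.3, 53.3, 82.4 and 82.0 in CLEAR, then 97.0, 115 and 106 in PS19 and 66.4, 58.5, 119 and 75.8 in CLEAR_PS19, with an averaged difference of -0.49 (SE 0.16, adjusted p = 0.34). Tfeb did not overlap between CLEAR and WT, and neither did Fnip1 (230 to 246 CPM in WT, 249 to 265 in CLEAR) or Rragc (34.9 to 45.4 and 47.3 to 59.5), which makes 3 of 9 against 5.92% of all genes tested. By library set, microglial Tfeb in set 1 was at 86.5, 127, 97.0 and 115 CPM without the mutation and 82.4 and 119 with it, and in set 2 at 105 and 106 without and 82.0 and 75.8 with it. The 4 libraries of set 3 (63.3, 53.3, 66.4 and 58.5 CPM) were the 4 lowest for Tfeb. CLEAR_PS19 replicate 3 lay at the top of its group for Tfeb as for the others, and it is the only library of set 1 in its group. Without it, 11.0% of the genes tested in microglia were called between CLEAR_PS19 and PS19 and 2.23% in the averaged comparison. CLEAR_PS19 against PS19 was then called for Tfeb (-0.67, adjusted p = 0.019), Mitf (-0.93, adjusted p = 0.0035), Fnip1 (-0.41, adjusted p = 0.037) and Fnip2 (-0.95, adjusted p = 0.0028), and the averaged comparison for Tfeb (-0.63, adjusted p = 0.035), Mitf (-0.51, adjusted p = 0.043) and Fnip2 (-0.60, adjusted p = 0.035). By the sets used, CLEAR_PS19 without this library has 2 libraries of set 3 and 1 of set 2. PS19 has 2 of set 1 and 1 of set 2, so set and mutation cannot be told apart in these values. Within set 1, Mitf was at 1290 and 1305 CPM in PS19 and 1099 in CLEAR_PS19, and Fnip2 at 523 and 567 against 629. Within set 2, Mitf was at 904 CPM in PS19 and 672 in CLEAR_PS19, and Fnip2 at 339 against 232.

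Tfeb in oligodendrocytes was lowest in library set 3. WT held 82.9, 105 and 108 CPM, PS19 86.8, 133 and 93.3, CLEAR 53.6, 49.0, 116 and 99.0, and CLEAR_PS19 56.9, 49.7, 123 and 69.0. The 4 libraries of set 3, all with the mutation, were the 4 lowest. The 2 mutant libraries of set 1, at 116 and 123 CPM, were within the range of the WT and PS19 libraries of that set, 82.9 to 133 CPM. In set 2 both mutant libraries were below their counterparts, 99.0 in CLEAR against 108 in WT and 69.0 in CLEAR_PS19 against 93.3 in PS19. By the sets used, set 3 and the mutation cannot be told apart in the first 2 replicates of CLEAR and CLEAR_PS19.

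Over all nuclei of a library summed, Tfec was called between PS19 and WT (+2.44, SE 0.66, adjusted p = 0.047), where 6.14% of all genes were. It was at 0.088, 0.088 and 0.034 CPM in WT and 0.335, 0.617 and 0.243 in PS19, which is 15 UMIs in 3 libraries against 80 in 3. The call was lost in 13 of 24 alternatives, with adjusted p between 0.014 and 0.23. Tfeb over all nuclei was at 8.48, 13.05 and 14.3 CPM in WT and 17.2, 28.6 and 15.9 in PS19 and did not pass (+0.80, SE 0.37, adjusted p = 0.26), and Mitf was at +0.62 (SE 0.18, adjusted p = 0.065). Such sums carry the share of each class: microglia made up 3.79, 4.25 and 5.02% of named nuclei in WT and 11.3, 16.1 and 8.94% in PS19. Oligodendrocytes made up 23.3, 18.9 and 25.1% in WT and 32.1, 33.1 and 30.4% in PS19, and over all nuclei 7 of 9 oligodendrocyte markers were higher with tau (811 to 1054 CPM summed in WT, 1352 to 1739 in PS19). Mcoln2, a channel gene related to Mcoln1, rose over all nuclei from 0.049 ± 0.019 to 0.312 ± 0.215 CPM (n = 3 each; +2.56, adjusted p = 0.025).

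In microglia few of the other genes of the pathway were called for the transgene averaged over backgrounds, where the median over 10424 genes tested was -0.01, 6.63% of them rose and 4.77% fell, and the median over the 9 members tested was +0.62. Of 13 known targets 3 rose (median +0.32): Sqstm1, for an autophagy receptor (WT 55.6 ± 11.1 CPM, PS19 96.2 ± 9.22, CLEAR 64.2 ± 6.70, CLEAR_PS19 74.3 ± 7.23; +0.50, adjusted p = 0.0084), Ctsd (+0.60, adjusted p = 0.044) and Gpnmb. Gpnmb had no UMI in WT microglia and averaged 67.3 ± 43.9 CPM in PS19, against 1.26 ± 1.46 with the CLEAR mutation alone and 25.2 ± 19.3 with both, and it is also on the list of activation markers. Of 3 tested amino acid sensor genes 1 fell, Sesn1, for a sestrin, a protein that binds and inhibits GATOR2 (median -0.42; -0.42, adjusted p = 0.010). No gene was called among 7 Rag and Ragulator genes (median -0.14), 10 of GATOR and KICSTOR (median -0.01), 8 of mTORC1 and TSC (median -0.10) and 8 of calcium and calcineurin (median -0.03). At an unadjusted p under 0.05 these lists had 1, 0, 0 and 2 genes. The share of all microglial genes at that threshold is not given here, so nothing is read from these counts. In granule neurons Sesn3 fell by 0.31 (47.4 ± 2.88 to 37.1 ± 0.76 CPM between WT and PS19; adjusted p = 0.0096 averaged over backgrounds).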

How the data were processed

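The deposited bulk files hold raw read counts per gene, which the authors made from mm10 with cutadapt, STAR and featureCounts, per the submitters' processing notes. Of the 21 bulk files 1 has a program header, and per that file header featureCounts 2.0.0 counted read pairs over exons without strand. The deposited nuclei files hold UMI counts per gene and barcode from Cell Ranger 5.0.1, per the file headers. PS19 9 months replicate 2 was not used here.

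Everything else was computed here. Nuclei with under 300 genes or over 5% mitochondrial counts and Scrublet doublets (12562) were removed, the rest clustered in scanpy 1.11.5 (2000 variable genes, 30 components, Leiden resolution 1), and raw counts summed per library and class. edgeR 4.0.16 (TMM, quasi-likelihood test, R 4.3.3) was fitted over all 21 bulk libraries or all 14 nuclei libraries with sex as a covariate, and p-values were adjusted (Benjamini-Hochberg) over all genes tested; a call is an adjusted p under 0.05. CPM uses TMM-normalized library sizes. On simulated counts the bulk fit at 9 months called 49.0% of 49 genes changed by a log2 of 0.5 and 90% of 50 changed by 1 (16012 genes tested), and the averaged tau fit in microglia 34% and 88% of 50 each (10103 genes). Bulk levels per kilobase use the union of GENCODE M21 exons, since the count tables used here carry no lengths. Protein sequences were not used here.

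The members, lists and markers were chosen with earlier results of these data known. All members are named in each comparison, with up to 2 genes of smallest adjusted p per direction and list, and for known targets of the factors the other calls as well, named after their values were seen. The value of 1 such target is not reported here. Library sets came from Spearman correlation with average linkage, cut at 3 groups. This was chosen after seeing the sets, and 3 of 6 combinations of correlation and linkage gave these sets. Alternatives were DESeq2 1.42.0, other size factors, no filter on low counts, a replicate or library set block, left-out libraries and other nuclei filters; single microglial clusters, sets by Pearson correlation, relabelling within sets and within-set values were added after seeing the data.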

Additional observations from a re-analysis of the deposited data

Results flagged for a closer look

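Among 54 groups of 4 or more libraries examined, where chance marks about 1 in 20, 6 had an end value far from the rest. In bulk WT at 9 months, replicate 3 was low for Mitf, at 7.76 CPM with the next library at 14.5, and for Fnip2, at 15.6 with the next at 23.8. In bulk PS19 at 4 months, replicate 6 was low for Rragc, at 60.3 CPM with the next at 67.6. In microglia, CLEAR_PS19 replicate 3 was high for Fnip1, at 472 CPM with the next at 320, and for Fnip2, at 629 with the next at 264. CLEAR replicate 4 was high for Rragd, at 6.30 CPM with the next at 3.80.

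The tau difference in bulk Tfeb differed between the ages by 0.55 on the log2 scale. The microglial tau difference differed from that of 8 other classes for Mitf, 7 for Fnip1, 7 for Fnip2, 4 for Rragc and 7 for Rragd. These members were compared because they had been called in microglia of the same libraries, so the counts are no separate evidence. The comparison was not run for other genes called in microglia. None of these differences was given an explanation, and the cause was not tested.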

How the results depend on the processing

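For bulk PS19 against WT at 9 months, 2 members were called with the replicate block in place of 1 (13.2% of all genes), and leaving out 1 library gave 1 to 2 (7.26 to 13.1%). The interaction of tau and age gave 0 to 2 members without 1 library (3.15 to 5.99%), and PS19 at 9 against 4 months gave 1 member without the filter on low counts (9.68%) and 0 to 3 without 1 library (10.7 to 18.7%). In nuclei, PS19 against WT gave 2 pairs with library sets by Pearson correlation (0.548% of all gene and class pairs) and 2 to 5 without 1 library (0.469 to 1.62%). CLEAR_PS19 against CLEAR gave 3 pairs without the filter (0.392%) and 1 with the library set block (0.355%). CLEAR against WT gave 7 pairs with the replicate block, where 13.6% of all gene and class pairs were called. CLEAR_PS19 against PS19 gave 1 pair without the filter (0.609%), 11 with the replicate block and 0 to 4 without 1 library (0.00447 to 1.49%); CLEAR averaged over tau gave 1 (0.450%), 14 and 0 to 3 (0.00448 to 0.435%). With the replicate block the called pairs of the mutation were of Tfeb, Mitf, Fnip1 and Fnip2, all lower, and of Mcoln1, higher, in oligodendrocytes, microglia, granule and other excitatory neurons, OPC or astrocytes, where 17.2% of all pairs were called against PS19 and 25936 of 108116 in the average. The cause was not tested. By the rule that every same-numbered pair correlates above 0.1, replicate numbers did not pair the libraries over all groups. Of 28 same-numbered bulk pairs 7 correlated above 0.1, and 6 of 21 libraries correlated best with their own number. In the 9 nuclear classes 6 (vascular) to 13 (granule, inhibitory and other excitatory neurons) of 19 pairs and 4 to 9 of 14 libraries did. Microglia had 9 and 5, and all nuclei summed had 12 and 7. The 19 pairs include those between backgrounds, where the same number can differ in set and sex. Within each background, nuclei libraries of the same number shared set and sex, WT with PS19 and CLEAR with CLEAR_PS19. The other 289 counts across settings stayed within 1.5 times their main value, counts of 0 that stayed 0 among them. Single-gene values were counted for the bulk members and for the nuclei pairs called, and so for no comparison of the mutation. Of these values 1355 kept their side of the threshold, 58 lost a call, 9 gained one and none changed direction past it. Many of the 1355 had no call in the main fit and so could not lose one. The 58 losses fell on the few results called in the main fit. Among them were 21 of 26 settings for bulk Rragd between the ages in PS19. Tfec over all nuclei lost its call in 13 of 24 settings, and microglial Rragc between PS19 and WT in 8 of 26. Low counts limit Tfec, Rragd in microglia and every vascular and Cajal-Retzius value.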
